A study of Mus musculus with 14 samples.

Results

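The respiratory chain was described from every row of the deposited table whose symbol named a subunit or a close factor of complexes I to IV or of ATP synthase. Of 32830 rows, 111 were members, 13 of them encoded in the mitochondrial genome (mt-Nd, mt-Co, mt-Cyt and mt-Atp symbols) and 98 in the nucleus (Nduf, Sdh, Uqcr, Cox4i, Cox5, Cox6, Cox7, Cox8 and Atp5 symbols). The table names the mitochondrial genes without the mt- prefix, so symbols were matched by Ensembl identifier to GENCODE M21 of the GRCm38 build. Of the members, 95 carried a fitting symbol in both sources, 15 in GENCODE alone and 1, Atp5sl, in the table alone. The rule also met 4 rows that GENCODE calls processed pseudogenes and 1 row that bears the symbol of another row, and these 5 were left out. The nuclear members comprised 36 complex I subunits, 8 complex I assembly factors, 4 complex II subunits, 4 complex II assembly factors, 8 complex III subunits, 20 complex IV subunits, 16 ATP synthase subunits and 2 related factors. The muscle form Cox8b and the testis form Cox8c did not reach the filter of 10 normalised reads in 2 libraries, which left 109 members tested.

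The samples were cerebral cortex of mice of strain SW at postnatal day 14. All carried the Aldh1l1-GFP reporter, in which regulatory sequence of the astrocyte gene Aldh1l1 drives green fluorescent protein. Upper and deep cortical layers were dissected by hand, and from each layer came sorted GFP-positive cells (astrocytes), sorted GFP-negative cells (non-astrocytes) and tissue that was not dissociated (bulk tissue). Upper layer astrocytes (n = 3), deep layer astrocytes (n = 3), upper layer non-astrocytes (n = 2), deep layer non-astrocytes (n = 2), upper layer bulk tissue (n = 2) and deep layer bulk tissue (n = 2) made up the 14 libraries. Non-astrocytes are whatever else survived papain digestion and the exclusion of DAPI-positive dead cells. The labels do not state that replicates were separate animals, so the p-values speak only for the spread among these samples, part of which may be technical.

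The respiratory chain passes electrons from NADH (through complex I) and from succinate (through complex II) by way of ubiquinone to complex III, cytochrome c and complex IV, which reduces oxygen. Complexes I, III and IV pump protons across the inner mitochondrial membrane, and ATP synthase uses their return to make ATP. All of these except complex II are built from subunits of both genomes: the circular mitochondrial genome encodes core subunits, is present in many copies per cell and is transcribed as long RNAs that are cut into single messages, while the nucleus encodes all other subunits and the assembly factors. In the brain, neurons are known for heavy use of oxidative phosphorylation, whereas astrocytes also run strong glycolysis but do contain many mitochondria.

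Depth was 18226457 to 30316765 reads in genes per library. Values are normalised read counts, that is gene counts divided by a size factor for each library, and differences are those between group means of log2(value + 1) from limma, a scale that understates changes of low genes. The sorted fractions carried the markers of their labels. The sum of 8 astrocyte markers was 1008107 to 1493060 in astrocytes, 26277 to 34209 in non-astrocytes and 200428 to 239614 in bulk tissue. The sum of 8 neuronal markers was 464 to 683 in astrocytes, 4152 to 9286 in non-astrocytes and 118434 to 156224 in bulk tissue. The neuronal marker Gad2 was about as high in astrocytes (171 to 251) as in non-astrocytes (142 to 286), while the other neuronal markers had lower means in astrocytes. The sum of 6 mural cell markers was 3820 to 7736 in astrocytes, 217594 to 293660 in non-astrocytes and 8295 to 10665 in bulk tissue. Most of the non-astrocyte sum was Rgs5 (mean 212731). The mural marker Pdgfrb was higher in astrocytes (1786 to 3090) than in bulk tissue (421 to 562), while the other mural markers had lower means in astrocytes than in bulk tissue. The sum of 6 microglial markers was 1001 to 2612 in astrocytes, 129972 to 189558 in non-astrocytes and 6084 to 7332 in bulk tissue. No marker of these 4 lists was at 0 over a whole group. Neuronal markers were thus far lower in both sorted fractions than in bulk tissue. In the bulk samples a lower value from fewer cells of a type and from less RNA per cell cannot be told apart. The part of cell type make-up in the differences below was not tested. Deep layer astrocyte replicate 2 (DL-GFP-2 in the plots) stood apart from the other 5 astrocyte libraries in 7.22% of all 22575 features tested, and upper layer non-astrocyte replicate 1 in 2.59% of features from its 3 companions, against 0.642% to 1.86% for the other 12 libraries. Results that turn or lose their call without either are given with and without it.

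Messages of the 13 mitochondrial genes took up several percent of all reads in genes, while those of the 98 nuclear members together took up less than 1%. The mitochondrially encoded sum was 6.03, 5.83 and 6.11% of reads in genes in upper layer astrocytes and 5.69, 16.03 and 5.75% in deep layer astrocytes. It was 3.03 and 5.56% in upper layer non-astrocytes and 5.903 and 6.45% in deep layer non-astrocytes, and 5.64 and 6.25% in upper layer and 7.12 and 5.84% in deep layer bulk tissue. Deep layer astrocyte replicate 2 was the highest of the 14 libraries and upper layer non-astrocyte replicate 1 the lowest, and the remaining 12 lay between 5.56% and 7.12%. The group means were 5.99 ± 0.1404% in upper layer astrocytes (SD, n = 3), 9.16 ± 5.95% in deep layer astrocytes (n = 3; 5.72 ± 0.0412% without replicate 2, n = 2), 4.296 ± 1.79% and 6.18 ± 0.384% in upper and deep layer non-astrocytes (n = 2 each), and 5.95 ± 0.431% and 6.48 ± 0.904% in upper and deep layer bulk tissue (n = 2 each).

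The nuclear sum separated the fractions where the mitochondrial sum did not. Nuclear members took 0.713, 0.684 and 0.694% of reads in upper layer astrocytes and 0.623, 0.624 and 0.594% in deep layer astrocytes. They took 0.372 and 0.467% in upper layer and 0.403 and 0.482% in deep layer non-astrocytes, and 0.723 and 0.7199% in upper layer and 0.776 and 0.816% in deep layer bulk tissue. Every non-astrocyte library was below every astrocyte library, and every bulk library was above every astrocyte library. Without the members whose reads could be shared with other rows, the bulk libraries no longer lay apart from the astrocyte libraries (0.429% to 0.5101% in astrocytes, 0.263% to 0.339% in non-astrocytes and 0.486% to 0.5499% in bulk tissue), and upper layer astrocytes averaged 0.504% against 0.495% in upper layer bulk tissue. Deep layer astrocyte replicate 2, so far from its group in the mitochondrial sum, had a nuclear share of all reads next to that of replicate 1. Those reads include its many mitochondrial ones. Of reads outside the mitochondrial genome, its nuclear share was 0.744%, against 0.660% and 0.631% in deep layer replicates 1 and 3. Its nuclear sum in normalised reads was 178581, against 133946 and 134453. The ratio of mitochondrial to nuclear reads was 8.45, 8.54 and 8.796 in upper layer astrocytes, 9.14, 25.7 and 9.67 in deep layer astrocytes, 8.14 and 11.9 in upper layer non-astrocytes, 14.7 and 13.4 in deep layer non-astrocytes, 7.801 and 8.69 in upper layer bulk tissue and 9.18 and 7.16 in deep layer bulk tissue. It was 12.02 ± 2.82 over the 4 non-astrocyte libraries, 13.3 ± 1.38 over the 3 without upper layer replicate 1, and 8.21 ± 0.9001 over the 4 bulk libraries. Over the 6 astrocyte libraries it was 11.7 ± 6.85, and 8.92 ± 0.501 over the 5 without deep layer replicate 2. These sums are a description of a chosen list and carry no test.

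**Figure D1:**
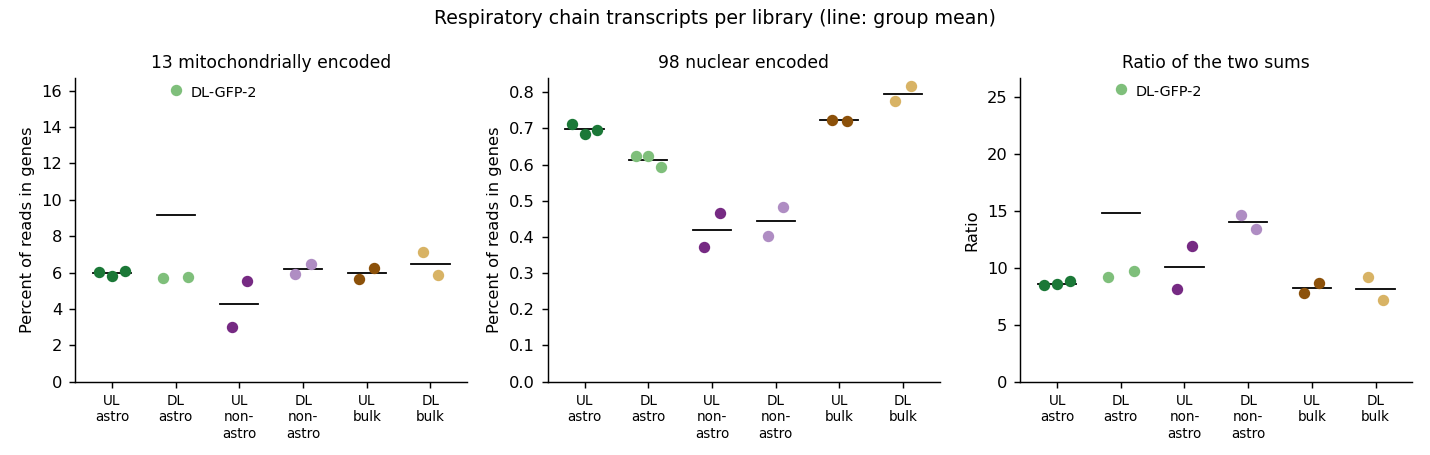
Share of reads in genes taken by the 13 mitochondrially encoded members (left) and the 98 nuclear members (middle), in percent, and the ratio of both (right), with 1 point per library in the 6 groups and a line at each group mean. Deep layer astrocyte replicate 2 lies at 16.03% in the left panel and at a ratio of 25.7 in the right panel. In the middle panel it lies next to replicate 1 at 0.624%, a share of reads that include its mitochondrial ones.

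Among the mitochondrial genes, mt-Co1, the catalytic core of complex IV (mitochondrial genome, 5328 to 6872), led in counted reads per kilobase in every fraction. The fewest were counted for mt-Nd3, a small membrane subunit of complex I. Reads of both could be shared with nuclear copies, as given below, so this is an order of counted reads and not of abundance. The share of mt-Co1 in mitochondrially encoded reads carries the same limit. The mt-Co1 counts were 689742, 619115 and 642161 in upper layer astrocytes and 532791, 1813342 and 484085 in deep layer astrocytes. They were 163649.8 and 454463 in upper layer and 404114 and 506902 in deep layer non-astrocytes, and 555675 and 553046 in upper layer and 668253 and 534137 in deep layer bulk tissue. Deep layer astrocyte replicate 2 was far above all others, upper layer non-astrocyte replicate 1 was lowest, and astrocytes overlapped both other fractions. mt-Co1 made up 42.4 ± 4.703% of all mitochondrially encoded reads in astrocytes (SD, n = 6), 32.9 ± 2.63% in non-astrocytes and 33.7 ± 1.399% in bulk tissue (n = 4 each). In astrocytes this share was 37.2% to 50.9%, above the 29.4% to 35.5% of the other 8 libraries in every case, and deep layer replicate 2, at 39.6%, was within the astrocyte range.

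mt-Cytb, the only mitochondrially encoded subunit of complex III (14145 to 15288), shares no 50-base stretch with another row of the table. Its counts were 148195, 168772 and 189073 in upper layer astrocytes and 159672, 598207 and 172993 in deep layer astrocytes, 74804 and 144712 in upper layer and 157487 and 169347 in deep layer non-astrocytes, and 171283, 191775, 216231 and 160963 in the bulk libraries. Without deep layer astrocyte replicate 2 all astrocyte libraries lay within the range of bulk tissue or just below it, and upper layer non-astrocyte replicate 1 was the lowest of all. Deep layer replicate 2 exceeded the mean of deep layer replicates 1 and 3 by a factor of 1.78 (mt-Nd3) to 5.48 (mt-Nd4l), with a median of 3.60 over the 13 genes, and was the highest of all 14 libraries for 12 of them, mt-Nd3 being the exception. For the 92 nuclear members with a mean of at least 50, the same ratio had a median of 1.32. Rows for nuclear copies of mitochondrial sequence moved with it: Gm13340 had 268831 normalised reads in that library, against 24099 to 97622 in the other 13. How reads were shared between such copies and the mitochondrial genes is uncertain for 7 of the 13, among them mt-Co2 (100% of 50-base stretches shared), mt-Co3 (99.9%), mt-Co1 (51.1%) and mt-Nd3 (97.99%), but mt-Cytb, mt-Nd1, mt-Nd6 and mt-Atp8 shared none. Exon sequence of mt-Atp8 overlaps mt-Atp6 over 21.1% of its length.

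**Figure D2:**
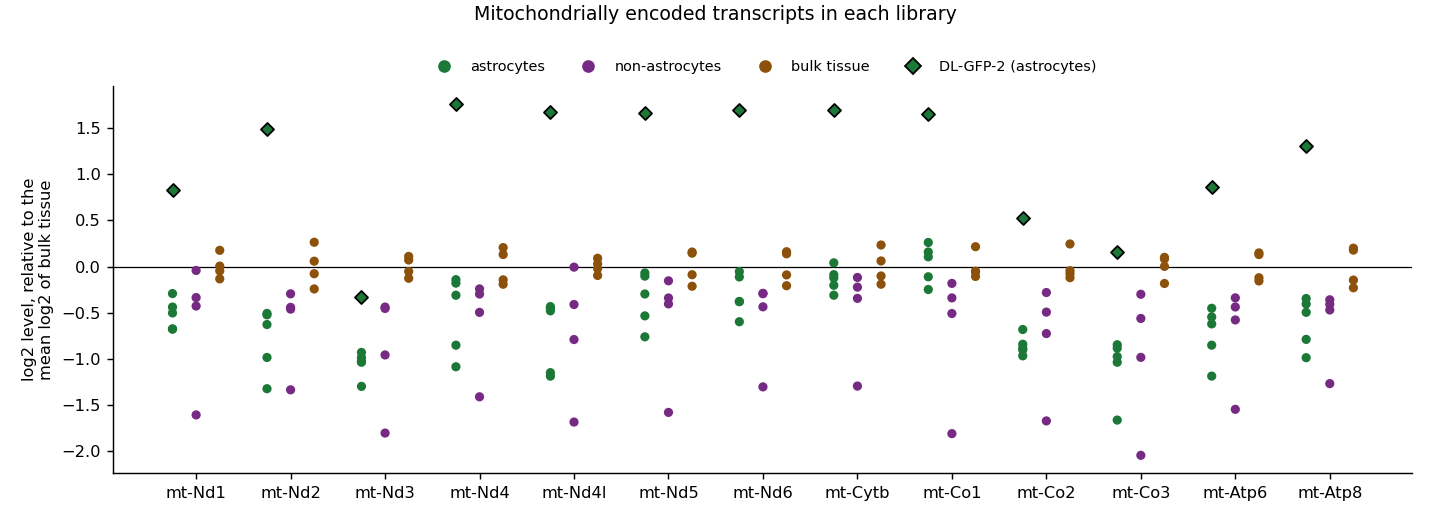
Level of each of the 13 mitochondrially encoded genes in each library, as log2 relative to the mean log2 level of the 4 bulk libraries, with deep layer astrocyte replicate 2 drawn as a diamond. The diamond is the highest point for 12 of the 13 genes, and for mt-Nd3 and mt-Co3, among others, the remaining astrocyte libraries lie below the bulk libraries.

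The first comparison asked how astrocytes differed from the other sorted cells, over both layers (n = 6 against 4). Nuclear genes of the chain were mostly higher in astrocytes: 80 of the 96 tested rose, 4 fell and 12 did not pass the test. Of all features tested, 66.3% were called, with 29.6% of all features higher and 36.8% lower in astrocytes. The median log2 difference was 0.77 over the nuclear members and -0.08 over all features. Of the 13 mitochondrial genes only mt-Co1 rose (log2 1.02, SE 0.34, limma adjusted p = 0.0163), and their median was 0.34. Without deep layer astrocyte replicate 2 the counts were 76 higher and 4 lower among nuclear members, and mt-Co1 still rose (log2 0.71, SE 0.23, limma adjusted p = 0.0135), while the median of the mitochondrial genes was 0.02 with 7 of 13 above 0. The call of mt-Co1 was lost without deep layer non-astrocyte replicate 1 (log2 0.93) and without upper layer non-astrocyte replicate 1 (log2 0.65). Without upper layer non-astrocyte replicate 1 the median of the mitochondrial genes was 0.14, and 67 nuclear members rose and 6 fell. Without both of these libraries 10 of the 13 mitochondrial genes were below 0 (median -0.24). With values scaled to all reads in genes the median of all features was -0.25, and 71 nuclear members rose and 4 fell.

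Complex by complex, the rise was shared. In complex I, 31 of 36 nuclear subunits rose (median log2 0.71), and 7 of 8 assembly factors did (median 0.95). Complex II, which has nuclear subunits only and is also an enzyme of the citric acid cycle, rose in all 4 of its genes. All 8 complex III subunits rose (median 0.93), as did 13 of 16 ATP synthase subunits (median 0.78). In complex IV 13 of 18 rose (median 0.78), and all 4 of the nuclear genes that fell in astrocytes belonged to it. Summed over subunits, complex I came to 38756 ± 4998 normalised reads in astrocytes (SD, n = 6) and 22401 ± 5046 in non-astrocytes (n = 4), and complex III to 14127 ± 1880.2 in astrocytes and 7006 ± 1593 in non-astrocytes. The nuclear sum of complex IV was 27165 ± 4546 in astrocytes and 18061 ± 4055 in non-astrocytes.

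Ndufa12, an accessory subunit of complex I, had the largest rise among subunits with a mean level of at least 50 (log2 1.80, SE 0.20, limma adjusted p = 8.78e-07). Its lowest, median and highest values were 1390.3, 1643 and 2957 in astrocytes, against 362, 599.5, 502 and 583 in the non-astrocyte libraries. The groups were well apart, although 26.2% of its 50-base stretches are shared with the copy Gm15920. Uqcrfs1, the Rieske iron-sulfur protein that takes electrons from ubiquinol in complex III (chromosome 13, 30540308 to 30545362), was at 1666, 2103 and 2380.1 in astrocytes and at 503, 645, 539 and 792 in non-astrocytes (log2 1.72, SE 0.14, limma adjusted p = 4.26e-08). Ndufaf4, an assembly factor of complex I (chromosome 4, 24898083 to 24905001), was at 943, 1175 and 1905 in astrocytes and at 305, 373, 424 and 462 in non-astrocytes (log2 1.65, SE 0.16, limma adjusted p = 2.46e-07). For both genes the lowest astrocyte library was well above the highest non-astrocyte library.

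Other genes with large rises were Atp5g3, which encodes the c subunit of the ATP synthase rotor (log2 1.41), the complex I accessory subunits Ndufc2 (log2 1.41) and Ndufc1 (log2 1.38), the small complex III subunit Uqcr10 (log2 1.40) and the assembly factor Ndufaf6 (log2 1.38), each called by limma. The c subunit is a useful case because 3 genes encode the same mature peptide behind different import sequences. Atp5g3 averaged 4437 ± 417 in astrocytes and 1708 ± 437 in non-astrocytes (SD, n = 6 and 4). Atp5g1 averaged 1368 ± 125 in astrocytes and 798 ± 55.2 in non-astrocytes (log2 0.77, SE 0.11, limma adjusted p = 1.28e-05). Atp5g2 was close in both, with 280.1 ± 33.8 in astrocytes and 268 ± 54.9 in non-astrocytes (log2 0.08, SE 0.18, limma adjusted p = 0.704), and 14.8% of its 50-base stretches are shared with copies.

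The succinate dehydrogenase genes gave a compact view of complex II. Sdha, the flavoprotein that oxidises succinate, averaged 4643 ± 658 in astrocytes and 2611 ± 232 in non-astrocytes (log2 0.82, SE 0.11, limma adjusted p = 1.11e-05). Sdhb, its iron-sulfur partner, averaged 1144 ± 146 in astrocytes and 744 ± 169 in non-astrocytes (log2 0.64, SE 0.15, limma adjusted p = 0.00153). The membrane anchors Sdhc (log2 1.02) and Sdhd (log2 0.85) were also called higher. None of the 4 was called between astrocytes and bulk tissue, where the log2 differences were -0.20 for Sdha, -0.15 for Sdhb, 0.27 for Sdhc and 0.22 for Sdhd. Complex II was the only complex with no called subunit between astrocytes and bulk tissue.

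**Figure D3:**
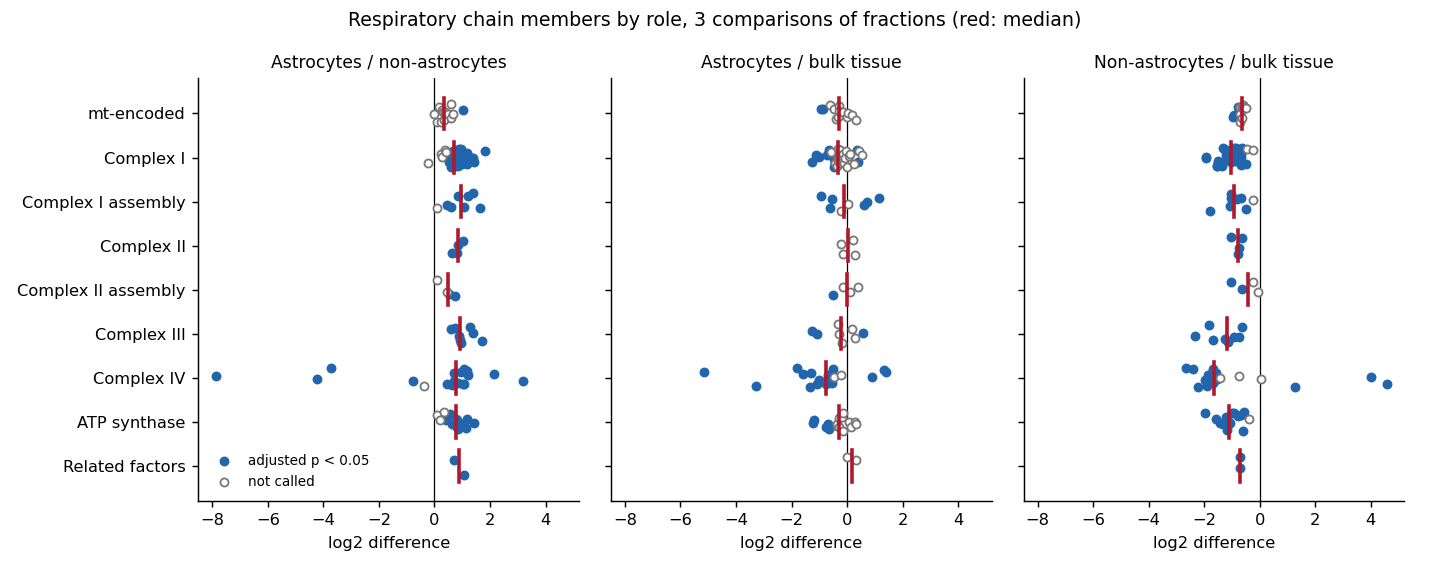
Log2 differences of the tested members by role for astrocytes against non-astrocytes, astrocytes against bulk tissue and non-astrocytes against bulk tissue, with filled blue points for called members, open points for members not called and a red line at the median. Complex III, complex II and ATP synthase lie above 0 in the first comparison and below 0 in the last, while complex IV spreads furthest in both directions.

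The second comparison set astrocytes against bulk tissue (n = 6 against 4), in which neuronal markers were high. Bulk tissue was also neither dissociated nor sorted. In this comparison and the third, dissociation and sorting therefore cannot be told apart from cell type. Here fewer nuclear members were called, and most of those were lower: 9 rose, 37 fell and 50 did not pass the test, with a median log2 difference of -0.30. Over all features 64.8% were called, 28.8% higher and 36.1% lower, with a median of -0.10. Scaling to all reads in genes put the split at 22 higher and 30 lower (median of all features 0.07), and scaling to reads outside the mitochondrial genome at 23 and 29, so the split between higher and lower members changed with the scaling. Complex IV moved furthest, with 13 of 18 nuclear subunits lower and 3 higher (median -0.74), against 13 lower and 2 higher of 36 in complex I, 2 lower and 1 higher of 8 in complex III and 5 lower of 16 in ATP synthase. Summed complex IV messages of the nucleus were 27165 ± 4546 in astrocytes and 57556 ± 3389.5 in bulk tissue, whereas those of complex II were 10669 ± 1424 in astrocytes and 10664 ± 846 in bulk tissue and those of ATP synthase 63463 ± 8546 in astrocytes and 73556 ± 3601 in bulk tissue (SD, n = 6 and 4).

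Cox8a, a small subunit of complex IV (chromosome 19, 7215153 to 7217616), fell furthest among genes with a mean of at least 50 other than Ndufa4l2. It was at 2526, 3090.1 and 3467 (lowest, median and highest) in astrocytes, against 11398, 11010.3, 9355 and 10172 in bulk tissue (log2 -1.81, SE 0.14, limma adjusted p = 1.71e-08). The bulk libraries were all well above the highest astrocyte library. Cox6a1 (log2 -1.60; 12.3% of 50-base stretches shared), Ndufa4 (log2 -1.34) and Cox6b1 (log2 -1.30), all complex IV subunits, also fell, as did the complex I subunit Ndufa1 (log2 -1.28), the complex III subunit Uqcrq (log2 -1.25) and Atp5d, the delta subunit of the F1 head of ATP synthase (log2 -1.24). Among the genes that rose were Ndufaf4, Ndufaf6 and Ndufaf7, all complex I assembly factors, with log2 1.16, 0.72 and 0.60, while 3 other assembly factors, Ndufaf3, Ndufaf5 and Ndufaf8, fell (log2 -0.95, -0.56 and -0.63). These last 3 were chosen after their values were seen. Uqcrfs1 rose (log2 0.58, SE 0.14, limma adjusted p = 0.00232), and so did Ndufs1, the large iron-sulfur subunit of complex I, at 2149, 2283 and 2702 in astrocytes against 1633, 1673, 1915 and 2093 in bulk tissue (log2 0.38, SE 0.11, limma adjusted p = 0.00933). The other complex I subunit that rose was Ndufab1, the mitochondrial acyl carrier protein (log2 0.36, 12.3% of 50-base stretches shared), named after its values were seen. The call of Ndufaf6 was lost without deep layer bulk replicate 2 (log2 0.63).

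Of the mitochondrial genes, mt-Nd3 fell in astrocytes against bulk tissue (log2 -0.94, SE 0.23, limma adjusted p = 0.00243) and so did mt-Co3, a core subunit of complex IV (log2 -0.88, SE 0.32, limma adjusted p = 0.027). mt-Nd3 was at 549, 672 and 1075 in astrocytes and 1303, 1420.4, 1459 and 1238 in bulk tissue, so that even deep layer replicate 2 stayed below the lowest bulk library. For mt-Nd3 and mt-Co3, reads could be shared with copies as given above. The call of mt-Co3 was lost without deep layer astrocyte replicate 1 (log2 -0.83) or 3 (log2 -0.67), upper layer astrocyte replicate 1 (log2 -0.86), deep layer bulk replicate 1 (log2 -0.87) or 2 (log2 -0.88), or upper layer bulk replicate 1 (log2 -0.83), and with DESeq2 (log2 -0.77). Without deep layer astrocyte replicate 2, 8 of the 13 mitochondrial genes were called lower, all 13 were below 0 and the median was -0.61, against -0.29 with it. The nuclear counts without that library were 8 higher and 49 lower.

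The third comparison set non-astrocytes against bulk tissue (n = 4 each). Nuclear members were lower nearly throughout: 84 of 96 fell, 3 rose and 9 did not pass the test, with a median log2 difference of -1.04. Over all features 61.6% were called, 30.5% higher and 31.1% lower, with a median of -0.04. All 8 complex III subunits, all 4 complex II subunits, 34 of 36 complex I subunits and 15 of 16 ATP synthase subunits fell. Complex IV had the lowest median of the roles, -1.64, with 12 of 18 lower and 3 higher, namely Ndufa4l2, Cox4i2 and Cox6b2. Over the 92 nuclear members with a mean of at least 50, Spearman's rho between transcript length and the log2 difference was 0.31 here, 0.37 for astrocytes against bulk tissue and 0.06 for astrocytes against non-astrocytes, so shorter messages tended to be lower against tissue that was not dissociated. These genes share libraries and are no independent replicates, and the part of length or RNA quality in the differences was not tested. The mitochondrial genes had a median of -0.64 and were all below 0, and 3 were called lower: mt-Nd3 (log2 -0.91), mt-Co3 (log2 -0.98) and mt-Co2 (log2 -0.80). The calls of mt-Co2 and mt-Co3 were both lost without either non-astrocyte replicate 1 or without either bulk replicate 1, that of mt-Co2 also without upper layer bulk replicate 2 (log2 -0.78), and that of mt-Co3 also without deep layer bulk replicate 2 (log2 -0.98) and with DESeq2 (log2 -0.87). Leaving out deep layer astrocyte replicate 2, which enters this comparison through the shared estimate of the spread alone, left all 13 called. Leaving out upper layer non-astrocyte replicate 1 alone left 1 called, and leaving out both gave 7. Scaling to all reads in genes moved the median of all features to 0.32 and left 68 nuclear members lower and 4 higher, with 1 mitochondrial gene called.

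Cox8a again fell furthest (log2 -2.67, SE 0.15, limma adjusted p = 9.51e-10), at 1155, 1998, 1595 and 1972 in non-astrocytes against 11398, 11010.3, 9355 and 10172 in bulk tissue. Ndufa4 (log2 -2.39), Uqcr11, a small subunit of complex III (log2 -2.34), Cox6a1 (log2 -2.24), Cox6b1 (log2 -1.98), Atp5g1 (log2 -1.96) and the complex I subunits Ndufb9 (log2 -1.93) and Ndufa5 (log2 -1.93) followed. Reads of Uqcr11, Cox6a1, Atp5g1 and Ndufb9 are shared with copies for 10.9%, 12.3%, 11.6% and 23.4% of their 50-base stretches. Ranked by fraction means, 64 of the 96 nuclear members ran in the order bulk tissue, astrocytes, non-astrocytes from high to low, and 26 had astrocytes above bulk tissue with non-astrocytes lowest. The remaining 6 had another order, and 5 of them were complex IV subunits. Because the comparisons share libraries, these orders are a description only.

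Most members that ran in another order were isoforms of complex IV subunits. Ndufa4l2 (chromosome 10, 127514967 to 127517154), a paralogue of the complex IV subunit Ndufa4 known as a hypoxia-induced gene and as a pericyte marker in brain, was at 0, 1.53 and 2.36 in astrocytes (lowest, median and highest), 361, 631, 421 and 489 in the non-astrocyte libraries and 26.7, 5.01, 39.9 and 20.3 in the bulk libraries. It was nearly absent from astrocytes, lower there than in non-astrocytes (log2 -7.86, SE 0.50, limma adjusted p = 1.78e-09) and than in bulk tissue (log2 -3.28), and higher in non-astrocytes than in bulk tissue (log2 4.58). Ndufa4 itself ran the other way, at 1632, 2084 and 2377 in astrocytes, 651, 1173, 855 and 1386 in non-astrocytes and 4889, 4901, 4963 and 5807 in bulk tissue. It was higher in astrocytes than in non-astrocytes (log2 1.05, SE 0.17, limma adjusted p = 7.03e-05).

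Cox4i2 (chromosome 2, 152754173 to 152765037), the oxygen-regulated isoform of subunit 4 known from lung and from perivascular cells, gave the same picture, with 12.1, 22.7 and 35.3 in astrocytes, 332, 677, 329 and 414 in non-astrocytes and 25.8, 20.03, 21.1 and 36.03 in bulk tissue. It fell in astrocytes against non-astrocytes (log2 -4.21, SE 0.33, limma adjusted p = 2.24e-08) and rose in non-astrocytes against bulk tissue (log2 4.01), and between astrocytes and bulk tissue the difference was within error (log2 -0.21, SE 0.33). Its common counterpart Cox4i1 was 3388 ± 641 in astrocytes and 2494 ± 595 in non-astrocytes (log2 0.45, SE 0.16, limma adjusted p = 0.0183), and 14.7% of its 50-base stretches are shared with Emc8. That call was lost without either of the first non-astrocyte replicates, with log2 0.26 without the upper layer library. Mural markers, at 217594 to 293660 in non-astrocytes against 3820 to 7736 in astrocytes, moved with both Ndufa4l2 and Cox4i2, and their part in the result was not tested.

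The muscle isoforms split. Cox6a2 was at 0, 1.54 and 11.3 in astrocytes, 17.7, 43.1, 35.6 and 38.2 in non-astrocytes and 84.8, 69.1, 86.9 and 122 in bulk tissue, lower in astrocytes than in both (log2 -3.71 and -5.16, limma adjusted p = 4.51e-05 and 1.5e-06), and 10.3% of its exon bases overlap Itgad. Cox7a1, in contrast, was higher in astrocytes, at 28.3, 51.6 and 119 against 6.14, 17.1, 14.6 and 8.18 in non-astrocytes (log2 2.15, SE 0.43, limma adjusted p = 0.000417) and 18.43, 8.01, 31.7 and 25.9 in bulk tissue (log2 1.38). Its highest astrocyte value was that of deep layer replicate 2. The call against bulk tissue was lost without upper layer bulk replicate 2 (log2 1.11). Cox7a2, the common form, was also higher in astrocytes than in non-astrocytes (log2 0.95) but lower than in bulk tissue (log2 -0.75). Cox7a2l, which is known for joining complexes III and IV into supercomplexes, was the fourth gene to fall against non-astrocytes (log2 -0.79, SE 0.11, limma adjusted p = 1.21e-05), at 1421, 1686 and 1924 in astrocytes and 2224, 3016, 3123 and 3177 in non-astrocytes. It was lower than in bulk tissue as well (log2 -0.74) and did not differ beyond error between non-astrocytes and bulk tissue (log2 0.05, SE 0.12), and 17.7% of its 50-base stretches are shared with Gm6969. The testis forms were low, with Cox6b2 at 35.5 to 58.9 in astrocytes, 34.5 to 81.7 in non-astrocytes and 16.4 to 35.1 in bulk tissue. Cox6b2 was called higher in astrocytes than in bulk tissue (log2 0.89), a call lost without upper layer bulk replicate 1 (log2 0.72), and higher in non-astrocytes than in bulk tissue (log2 1.28). Cox7b2, named after its values were seen, was at 9.92, 13.7 and 28.4 in astrocytes, 0 to 3.64 in non-astrocytes and 2.77 to 9.01 in bulk tissue. Astrocytes exceeded non-astrocytes (log2 3.20) and bulk tissue (log2 1.31), both called by limma, and with Cox7a1 and Cox6b2 it made up the 3 complex IV genes higher in astrocytes than in bulk tissue.

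**Figure D4:**
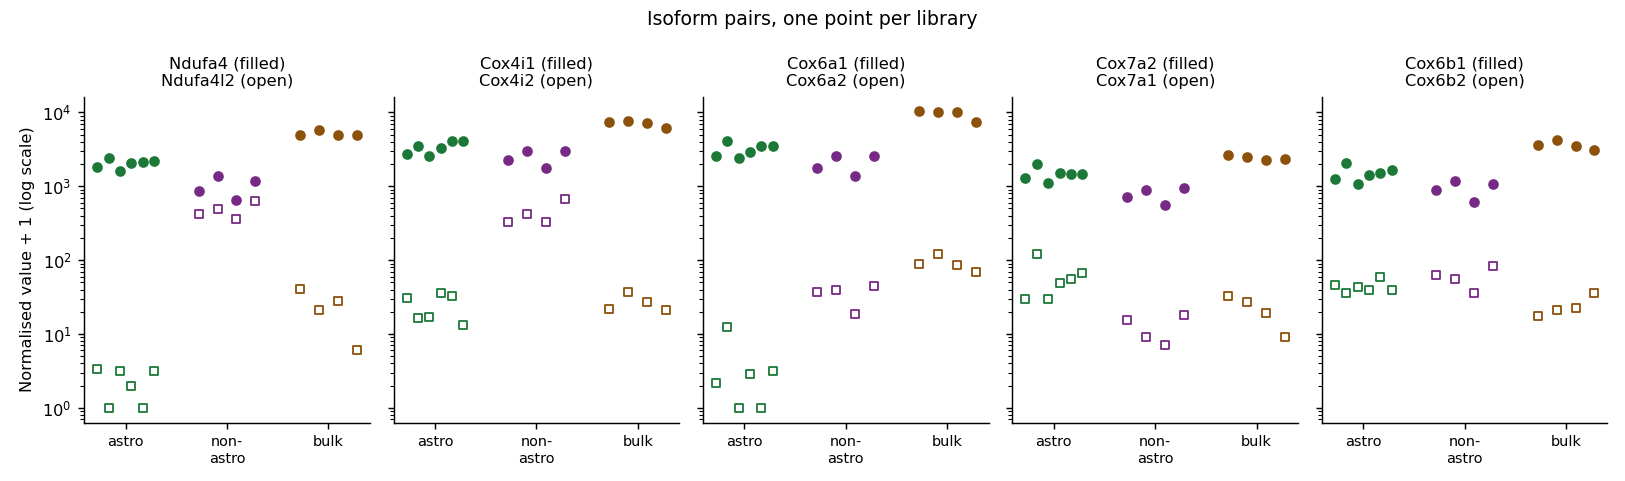
Normalised reads + 1, on a log axis, of 5 pairs of complex IV isoforms in each library of astrocytes, non-astrocytes and bulk tissue. Ndufa4l2 and Cox4i2 peak in non-astrocytes while their partners Ndufa4 and Cox4i1 peak in bulk tissue, and Cox7a1 has its highest mean in astrocytes.

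Promoter sequence was described for the nuclear members. Members that moved between fractions were not set against those that did not, so the shares below do not bear on the differences between fractions. Of the 98, 81 matched a promoter in the RefSeq table (GRCm38.p6, 250 bases before to 50 after the start). A gene was counted once if any of its promoters held the letters. The core of the ETS site bound by GABP, CCGGAAG, was found on either strand in 21 of the 81 (25.9%) and in 2683 of all 27025 genes with a promoter (9.93%). The core of the NRF1 site, TGCGCAT, was found in 9 (11.1%) and in 873 of all (3.23%), that of YY1, AAGATGG, in 13 (16%) and in 1967 of all (7.28%), and CCAAT in 36 (44.4%) and in 11096 of all (41.1%). GABP, NRF1 and YY1 are known regulators of nuclear respiratory genes. These matches are letters in a window, not binding sites, and carry no test. Shown here are the bases before the start for a gene that rose in astrocytes against both other fractions (Ndufaf4) and for genes that fell furthest in non-astrocytes against bulk tissue in complexes III and IV (Uqcr11 and Cox8a), read 5′ to 3′ on the gene's strand. Capitals mark the NRF1 core in Ndufaf4, the ETS core in Uqcr11 and, read on the opposite strand, the CCAAT box in Cox8a.
Ndufaf4, chr4:24897833-24898082, plus strand: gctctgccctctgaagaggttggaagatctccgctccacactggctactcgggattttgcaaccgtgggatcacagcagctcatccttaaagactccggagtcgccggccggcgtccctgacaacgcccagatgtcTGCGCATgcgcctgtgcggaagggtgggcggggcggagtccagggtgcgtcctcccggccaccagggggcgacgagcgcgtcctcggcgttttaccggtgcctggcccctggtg
Uqcr11, chr10:80406831-80407071, minus strand: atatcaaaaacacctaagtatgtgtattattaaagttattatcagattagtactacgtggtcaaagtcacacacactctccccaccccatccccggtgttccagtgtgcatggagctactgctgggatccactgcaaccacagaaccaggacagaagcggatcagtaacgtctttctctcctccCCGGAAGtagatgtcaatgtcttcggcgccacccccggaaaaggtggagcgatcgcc
Cox8a, chr19:7217617-7217866, minus strand: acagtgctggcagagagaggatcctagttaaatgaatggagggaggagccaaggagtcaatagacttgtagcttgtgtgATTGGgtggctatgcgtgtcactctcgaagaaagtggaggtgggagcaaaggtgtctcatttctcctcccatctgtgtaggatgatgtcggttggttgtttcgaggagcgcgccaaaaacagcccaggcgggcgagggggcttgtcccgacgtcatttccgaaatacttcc

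The layer comparisons set upper against deep cortex within each fraction. No member was called in any of them, by limma, edgeR or DESeq2. Among astrocytes (n = 3 each), 0 of 109 were called against 0.0797% of all features by limma, 0.0753% by edgeR and 0.629% by DESeq2, and 9 nuclear and 0 mitochondrial members had an unadjusted limma p under 0.05, against 10.3% of all features. Among non-astrocytes (n = 2 each) 0 members were called and 0 reached that unadjusted p, against 0.00443% and 3.86% of all features (edgeR called 0.031% and DESeq2 0.616%). In bulk tissue (n = 2 each) both numbers were again 0, against 0.456% and 7.26% (edgeR 0.753%, DESeq2 1.9%).

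In astrocytes the nuclear and mitochondrial members lay on opposite sides of 0, and the mitochondrial side turned when a single library was left out. All 13 mitochondrial genes were lower in upper than in deep layer astrocytes (median log2 -0.44), but without deep layer replicate 2, 11 of the 13 were above 0 (median 0.11). For mt-Cytb, 148195, 168772 and 189073 in upper layer astrocytes stood against 159672, 598207 and 172993 in deep layer astrocytes. Nuclear members were above 0 in 80 of 96 cases (median 0.16), and in 87 without that library (median 0.33). Those with the smallest unadjusted p and a place among the named genes were Cox7a2l (log2 0.35, 1869, 1826 and 1924 in upper layer against 1546, 1421 and 1427 in deep layer astrocytes), Atp5d (log2 0.53), Ndufb9 (log2 0.44) and Sdhd (log2 0.40). The lowest limma adjusted p of the 4 was 0.423, so none of these passed the test.

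In non-astrocytes all 13 mitochondrial genes were lower in the upper layer (median log2 -0.66), as were 87 of 96 nuclear members (median -0.20). Without upper layer replicate 1, 9 of the 13 mitochondrial genes were below 0 (median -0.10) and 76 of 96 nuclear members were above it (median 0.12). The direction of most nuclear members thus turned with that library, while most mitochondrial genes stayed below 0 with a smaller median difference. In bulk tissue, mitochondrial genes were close to 0 (median -0.06) and 74 of 96 nuclear members were below it (median -0.15). The sum of 6 oligodendrocyte markers moved with layer in both fractions, at 50939 to 58572 in upper layer and 108404 to 145813 in deep layer non-astrocytes and at 37820 to 41495 in upper layer and 125724 to 147904 in deep layer bulk tissue, and its part in these values was not tested. The test of whether the layer difference itself differed between astrocytes and non-astrocytes called 0 members by limma (0.00443% of all features were called, and 5.98% had an unadjusted p under 0.05). The same test between astrocytes and bulk tissue also called 0 members (0.137% of all features, and 8.03% unadjusted).

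**Figure D5:**
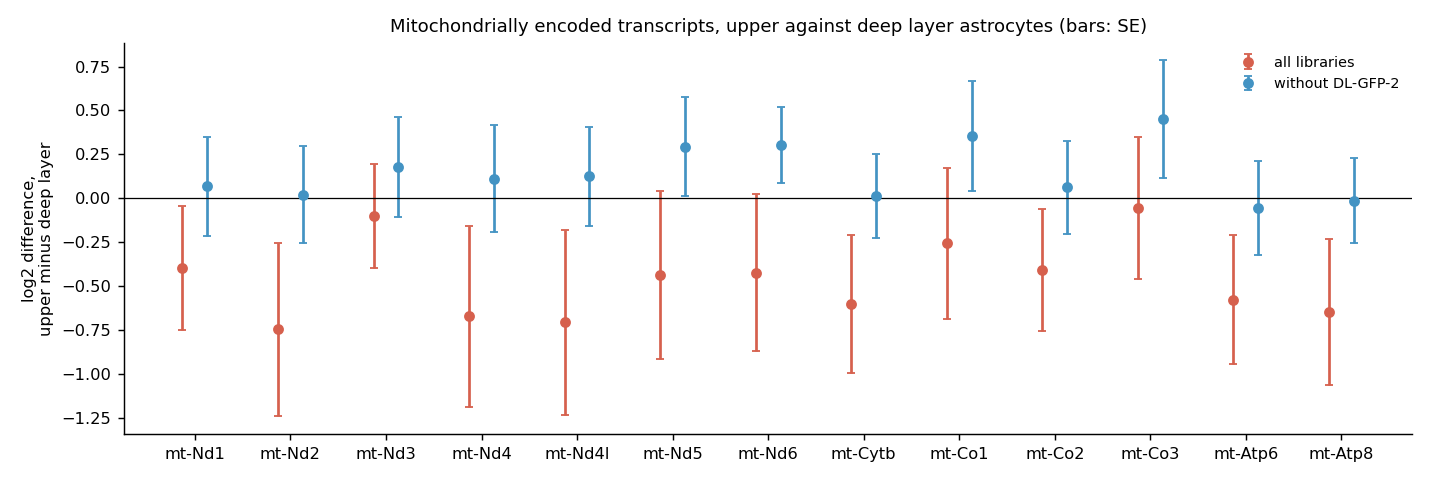
Log2 difference between upper and deep layer astrocytes for the 13 mitochondrially encoded genes, with bars of 1 standard error, from all libraries and without deep layer astrocyte replicate 2. All 13 lie below 0 with all libraries, and 11 of 13 lie above 0 without that library.

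Genes that maintain, switch on and feed the chain were read from further lists. Of 10 regulators of mitochondrial gene expression, 4 rose and 4 fell in astrocytes against non-astrocytes, and 3 rose and 4 fell against bulk tissue, near the 66.3% and 64.8% of all features called in these comparisons. The same shares of all features stand beside the counts of the further lists. Ppargc1a, the coactivator PGC-1α that drives nuclear respiratory genes, had the largest change, with 6987 ± 1859.6 in astrocytes (SD, n = 6), 294 ± 50.2 in non-astrocytes and 3482 ± 399 in bulk tissue (n = 4 each). It rose in astrocytes against both (log2 4.54, SE 0.15, limma adjusted p = 1.27e-12 against non-astrocytes; log2 0.98 against bulk tissue). Its relative Ppargc1b was lower in astrocytes than in bulk tissue (log2 -3.99), as was the nuclear receptor Esrrg (log2 -3.10). Gabpa, the DNA-binding subunit of GABP, was 2421 ± 654 in astrocytes and 883 ± 178 in bulk tissue (log2 1.44).

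Of 14 genes for upkeep and transcription of mitochondrial DNA, 8 rose and 2 fell in astrocytes against non-astrocytes, and 8 rose and 0 fell against bulk tissue, among them the accessory subunit of the DNA polymerase, Polg2 (log2 1.37 and 1.65), and Ssbp1, which coats single-stranded mitochondrial DNA (log2 0.73 and 1.61). Of 15 genes for processing mitochondrial RNA, 10 rose and 2 fell against non-astrocytes, and 7 rose and 3 fell against bulk tissue. In the citric acid cycle 11 of 13 genes rose and 0 fell against non-astrocytes, with citrate synthase Cs at 11588 ± 1638 in astrocytes and 2783 ± 726 in non-astrocytes (log2 2.08), Suclg1 at log2 1.99 and Idh3a at log2 1.75, and 5 rose and 3 fell against bulk tissue. Of 21 assembly factors for complexes III and IV, 14 rose and 0 fell against non-astrocytes, led by the heme A synthesis gene Cox10 (log2 2.13), and 7 rose and 6 fell against bulk tissue. The median log2 differences against non-astrocytes were 0.46, 0.50, 1.02 and 0.59 for these 4 lists in turn, beside -0.08 over all features. Set against bulk tissue, non-astrocytes had 12 of 13 citric acid cycle genes and 14 of 21 assembly factors lower. In that comparison 61.6% of all features were called, with 31.1% of all features lower.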

How the data were processed

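RNA-seq was measured in 14 libraries of 6 groups, read from the sample titles. Another label field calls both sorted upper layer groups bulk tissue, against their titles. Per the labels' protocols, RNA was amplified by a single primer isothermal method that needs no poly(A) tail, and sequenced as single reads of 50 bases; 5 libraries shared a lane, and which was where is not given in the sources used here. The authors used GRCm38 with TopHat2 2.0.11, HTSeq 0.6.1p1, CASAVA and DESeq2, per the submitters' processing notes. The deposited signal values are gene counts that the authors divided by 1 size factor per library (0.705 to 1.30): all values (100%) were whole multiples of 1 read within 1e-06, so whole reads were recovered. Strand use in counting is not given in the sources used here. Reads of mt-Nd6 and antisense reads of the opposite strand therefore cannot be told apart. All 14 value columns are named for samples.

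Of 32830 rows, 32007 matched GENCODE M21. Because values are scaled counts, the leading test was limma 3.58.1 (R 4.3.3; trend and robust moderation) on log2(value + 1), over 22575 features with a value of at least 10 in 2 libraries, fitted to 6 group means with 8 residual degrees of freedom; in comparisons of fractions the layers had equal weight. Benjamini-Hochberg adjustment ran over all features, and an adjusted p below 0.05 was called. edgeR 4.0.16 and DESeq2 1.42.0 on recovered reads, other pseudocounts, filters and scalings, each library left out and replicate blocks were alternatives. The fit was tested on simulated data. Members were marked uncertain where over 10% of their 50-base stretches or exon bases were shared with another row (38 of 111). Within astrocytes, same-numbered libraries of both layers deviated together in all 3 pairs, but weakly (r = 0.125 to 0.149). Deviations from the mean of 3 libraries sum to 0 and so constrain each other, and these values do not establish that the numbers pair the layers. In groups of 2 both pairs give the same r by construction (0.331 in non-astrocytes, 0.105 in bulk tissue), which does not establish pairing. Every comparison between fractions involves groups of 2, whose deviations are equal and opposite. These values therefore cannot decide whether the numbers pair the fractions. The block within fraction called 0 members in every layer comparison, as did the fit without it.

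Named were all mitochondrial members, the listed isoform families, the c subunit and complex II genes, and by comparison the 8 called nuclear members per direction (5 for layers) with the largest differences, separate libraries and a mean of at least 50, plus up to 3 genes per further list. The members, lists and rules were chosen with earlier results of these data known.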

Additional observations from a re-analysis of the deposited data

Results flagged for a closer look

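For each named member and for the sums, the gap between the most extreme library and its nearest neighbour was divided by the range of the fraction's libraries. Of 149 tests, 25 passed Dixon's 95% value (0.625 for 6 libraries, 0.829 for 4), where chance gives about 1 in 20. Tests that share libraries are not independent, and 20 of the 25 fell on deep layer astrocyte replicate 2. That library had been singled out before these tests, from earlier results of these data. Its flags therefore describe how far it lay from the others and cannot be set against that rate. Among the 6 astrocyte libraries deep layer replicate 2 was the high one in the mitochondrial percent (gap 0.960 of the range) and in the ratio of mitochondrial to nuclear reads (0.929). It was also the high one for each of the 13 mitochondrial genes, with 0.789 for mt-Atp6, 0.857 for mt-Atp8, 0.845 for mt-Co1, 0.880 for mt-Co2, 0.701 for mt-Co3, 0.909 for mt-Cytb, 0.834 for mt-Nd1, 0.874 for mt-Nd2, 0.697 for mt-Nd3, 0.852 for mt-Nd4, 0.891 for mt-Nd4l, 0.859 for mt-Nd5 and 0.883 for mt-Nd6. The same library was highest among astrocytes for the nuclear members Cox6a2 (0.806), Ndufa12 (0.720), Ndufa5 (0.677), Ndufaf4 (0.685) and Ndufc1 (0.651).

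Among the 4 non-astrocyte libraries, upper layer replicate 1 was the low one for Cox7a2l (0.830) and mt-Atp8 (0.842). Among the 4 bulk libraries, Cox6a1 was low in upper layer replicate 2 (0.965), Ndufa4 was high in deep layer replicate 2 (0.920) and mt-Co1 was high in deep layer replicate 1 (0.839).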

How the results depend on the processing

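The nuclear counts for astrocytes against non-astrocytes and for non-astrocytes against bulk tissue stayed within 1.5 times of the reported count in every setting run. Settings that moved a count by more concerned the mitochondrial genes and the few nuclear genes higher in astrocytes than in bulk tissue. For astrocytes against non-astrocytes, 1 mitochondrial gene was called, against 2 with edgeR and with TMM scaling, 4 without deep layer astrocyte replicate 2 and upper layer non-astrocyte replicate 1 (a setting chosen after seeing the data), and 0 to 3 with single libraries left out. For astrocytes against bulk tissue, 2 were called, against 1 with DESeq2 and 1 with the replicate block (mt-Co3 lost, log2 -0.68 with the block), 11 without both named libraries and 1 to 8 with single libraries left out, and the 9 nuclear genes called higher became 14 with edgeR and with TMM scaling, 22 with all-reads scaling, 23 with scaling to reads outside the mitochondrial genome and 15 with the replicate block. For non-astrocytes against bulk tissue, 3 mitochondrial genes became 1 under either of the last 2 scalings, 7 without both named libraries and 1 to 13 with single libraries left out. The difference of layer differences between astrocytes and bulk tissue called 0 nuclear members, and 1 without both named libraries. Signs turned with a call gained, without both named libraries, for mt-Co2 (log2 -0.36) and mt-Co3 (-0.53) in astrocytes against non-astrocytes and for mt-Nd6 (-0.34) in astrocytes against bulk tissue; the cause was not tested. As a percent of reads outside the mitochondrial genome, the mitochondrial sum was 6.37 in upper layer astrocytes and 6.58 in deep layer non-astrocytes, and the nuclear sum 0.742 and 0.678 in upper and deep layer astrocytes and 0.767 and 0.851 in upper and deep layer bulk tissue. Without uncertain members the mitochondrial percent was 1.80 and 2.97 in upper and deep layer astrocytes, 1.46 and 2.11 in non-astrocytes and 1.91 and 2.07 in bulk tissue, and the nuclear percent was 0.504 and 0.435, 0.297 and 0.311, and 0.495 and 0.537 in the same groups. Of the settings for single named genes, 6778 kept direction and side of the threshold, 105 gained a call, 55 lost one, 3 turned with a call gained and 250 changed sign with no call in either fit. Of these 250, 39 and 22 were nuclear and mitochondrial members between layers of astrocytes, 80 and 8 between layers of non-astrocytes, and 8 and 25 in astrocytes against bulk tissue. The replicate block over all fractions moved no count by more than 1.5 times beyond those given.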

Other observations

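Carriers that serve the chain were split. Of 9 genes, 6 rose and 1 fell in astrocytes against non-astrocytes, and 2 rose and 5 fell against bulk tissue, where 66.3% and 64.8% of all features were called. Ucp2, an uncoupling protein family carrier known from immune cells, averaged 276 ± 33.2 in astrocytes (SD, n = 6), 6125 ± 929 in non-astrocytes and 737 ± 116 in bulk tissue (n = 4 each), and fell in astrocytes against non-astrocytes (log2 -4.47, SE 0.13, limma adjusted p = 3.89e-13). Microglial markers, which summed to 1001 to 2612 in astrocytes and 129972 to 189558 in non-astrocytes, moved with it, and their part was not tested. Slc25a22, a glutamate carrier, was lower in astrocytes than in bulk tissue (log2 -3.85).

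Of 76 genes for mitochondrial ribosomal proteins, which translate the 13 mitochondrial messages, 51 rose and 2 fell in astrocytes against non-astrocytes and 19 rose and 12 fell against bulk tissue (of all features, 29.6% were higher and 36.8% lower in the first comparison, and 28.8% higher and 36.1% lower in the second), with Mrpl15 at log2 1.61 and 1.05. Of 22 mitochondrial tRNA genes, 1 rose (mt-Tp, log2 1.16) and 5 fell against non-astrocytes, and 0 rose and 11 fell against bulk tissue, among them mt-Td (log2 -3.17). The tRNA genes together took 0.009998 ± 0.00313% of reads in genes in astrocytes, 0.0122 ± 0.00352% in non-astrocytes and 0.0127 ± 0.000814% in bulk tissue. No gene of the 8 further lists was called between layers, apart from 1 regulator, the nuclear receptor Esrrg, which was lower in upper than in deep layer bulk tissue.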
